A study of Mus musculus with 6 samples.

Results

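The genes described here are 10 genes of the circadian clock, Arntl, Npas2, Clock, Cry1, Cry2, Per2, Per3, Nr1d1, Nr1d2 and Dbp. They were chosen by their symbols, were found once each among the 55039 genes of the deposited tables, and were compared between the fat of cachectic mice and of control mice. The animals were male C57BL/6 mice, aged 6 to 7 weeks when they were assigned. The 3 mice of the CAC group (cancer-associated cachexia) had been injected under the skin with LLC cells, a mouse Lewis lung carcinoma line, and the 3 mice of the CONT group with PBS, the carrier alone. White fat of the epididymal pad (eWAT) was collected 28 days later, and 1 mRNA library was sequenced from each mouse. Each group is thus 1 tumor line or its carrier in 1 inbred strain and 1 sex. The hour at which each animal was killed, the lighting schedule and its last meal are not given in the sources used here. For genes that cycle over the day, a different clock phase, a different amplitude and a different hour of collection therefore cannot be told apart.

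The mammalian clock is a feedback loop of transcription. CLOCK, or its paralogue NPAS2, pairs with BMAL1, the product of Arntl, and the pair binds E-box sequences and switches on the Per and Cry genes, the nuclear receptor genes Nr1d1 and Nr1d2 (REV-ERBα and REV-ERBβ) and Dbp. PER and CRY proteins then gather and inhibit the pair, while the REV-ERB receptors repress Arntl and Npas2. Over a normal day the Arntl and Npas2 mRNAs therefore peak at about the opposite time to Dbp, Nr1d1 and Per3. White fat keeps such a clock, and feeding time, glucocorticoids and inflammation are known to shift it or to act on single members.

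The DNA elements of this loop can be read in the promoter sequences of some of the members. RefSeq windows from 250 bases before to 50 bases after the transcription start, on the mouse build GRCm38.p6, matched 9 of the 10 genes, with 12 windows in all, and Per2 had no match. The stretches are shown because they hold the element through which one member is known to act on another. Capitals mark CACGTG (the E-box) or AACGTG, the other strand of the E′-box CACGTT, both of which CLOCK and BMAL1 bind, TTATGTAA (the D-box), which DBP and its rival NFIL3 bind, and TAGGTCA, an element of the type that the REV-ERB receptors and RORα bind. Each sequence is written 5′ to 3′ on the strand of its gene. The minus-strand stretches lie at chr10:85185075-85185154 (Cry1, bases 100 to 21 before the start), chr2:92434190-92434269 (Cry2, bases 200 to 121 before it), chr11:98775378-98775447 (Nr1d1, bases 70 to 1 before it) and chr4:151044801-151044880 (Per3, bases 215 to 136 before it). The plus-strand stretch of Arntl lies at chr7:113207529-113207558, bases 19 to 48 after one of its starts. Distances are from the RefSeq starts, and for Nr1d1 and Cry2 these lie outside the gene bounds of the deposited table.
Cry1: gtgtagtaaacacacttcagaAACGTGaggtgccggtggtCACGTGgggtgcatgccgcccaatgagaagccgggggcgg
Cry2: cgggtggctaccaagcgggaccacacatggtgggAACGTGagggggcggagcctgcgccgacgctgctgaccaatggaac
Nr1d1: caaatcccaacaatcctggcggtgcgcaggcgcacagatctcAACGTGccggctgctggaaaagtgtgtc
Per3: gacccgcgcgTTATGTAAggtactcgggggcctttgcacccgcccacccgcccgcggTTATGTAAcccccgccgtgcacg
Arntl: gaaggcagaaagTAGGTCAgggacggaggt

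The 12 windows and all 32851 windows of the table were searched on both strands for the E-box CACGTG, the E′-box CACGTT, the D-box TTATGTAA, its variant TTATGCAA and the receptor element TAGGTCA. The E-box CACGTG was in 7.15% of all windows and, among the members, in that of Cry1. CACGTT was in 4.68% of all windows and in those of Cry1, Cry2 and Nr1d1. TTATGTAA was in 0.938% of all windows and stood 2 times in that of Per3. TTATGCAA was in 0.743% of all windows and in no window of a member. TAGGTCA was in 2.61% of all windows and in that of Arntl. A match describes the letters in these windows and does not show that a factor was bound there.

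The libraries held from 15713794 counts (CONT replicate 1) to 25926425 counts (CAC replicate 3), and each CAC library was deeper than each CONT library. CONT replicate 1 stood apart, with 30.2% of its counts on genes of the mitochondrial genome, against 3.89% to 5.04% in the other 5 libraries. Levels are given in CPM, counts scaled by edgeR's TMM-adjusted library size, and the reads behind 1 CPM ranged from 11.2 (CONT replicate 1) to 26.5 (CAC replicate 3). All 10 genes passed edgeR's filter on low counts. Their counts ran from 27 to 3913 in a single library, and these values carry counting error as well as the difference between mice. All 7 adipocyte markers, among them Adipoq and Plin1, were detected in every library, with summed levels of 13608 to 31933 CPM in CONT and 10572 to 27148 CPM in CAC. Most of the highest sum of each group was Fabp4, at 22460 CPM in CONT replicate 1 and 13836 CPM in CAC replicate 1. Adipoq was lowest in CONT replicate 1, at 1692 CPM. Lep, the leptin gene, was at 3.996 CPM in CAC replicate 2 and at 0.415 CPM in CAC replicate 3, against 409 CPM or more in the other 4 libraries. In bulk tissue, fewer cells of a type and less RNA per cell cannot be told apart.

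**Figure D1:**
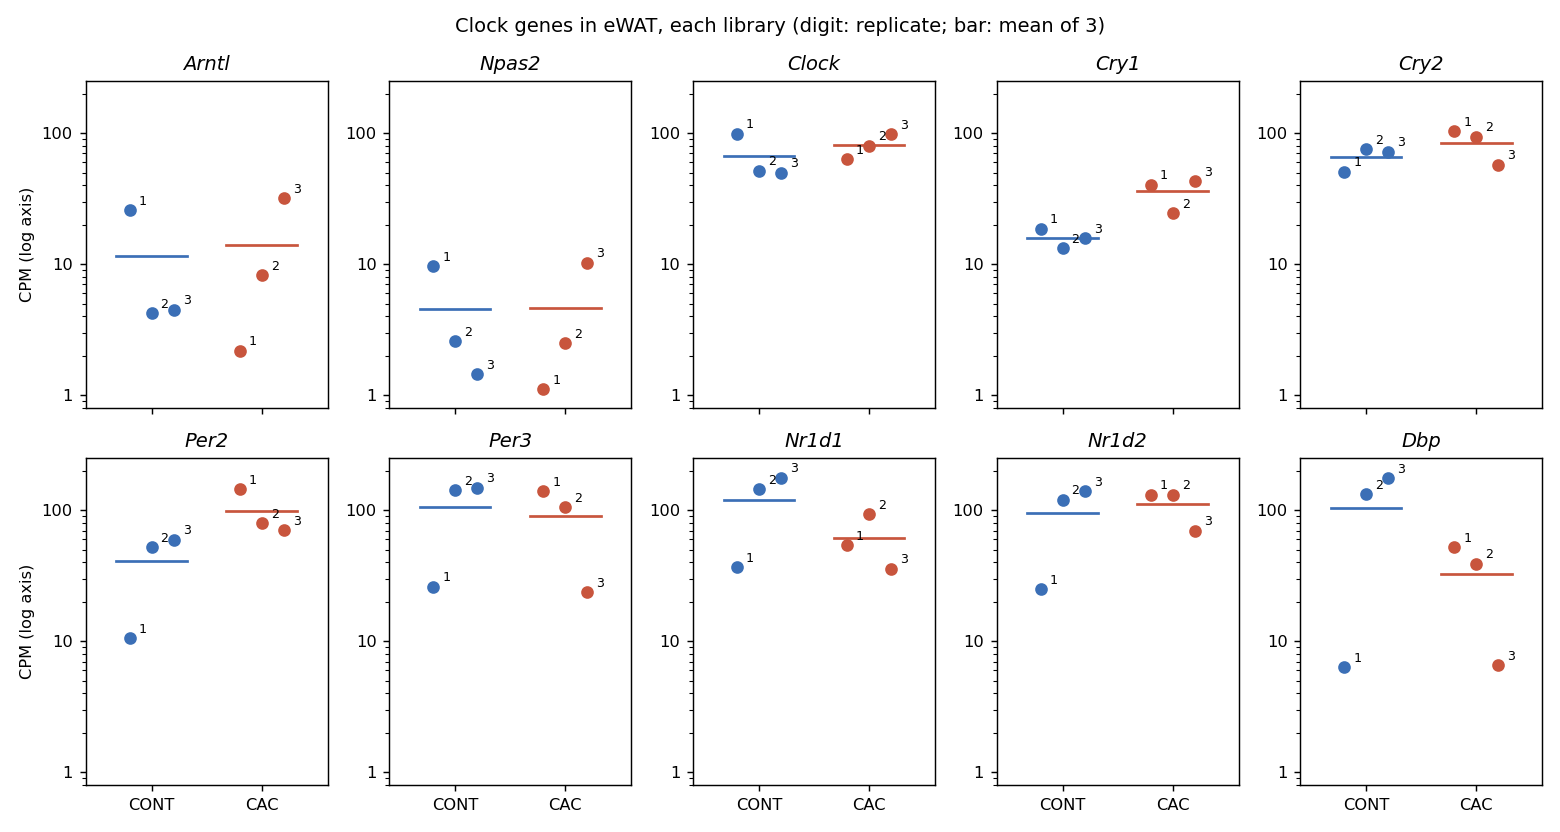
CPM of the 10 clock genes on a log axis in the 3 CONT libraries (blue) and the 3 CAC libraries (red), with the replicate number beside each point and a bar at the mean of 3. CONT replicate 1 and CAC replicate 3 are the 2 highest points for Arntl, Npas2 and Clock and the 2 lowest for Cry2, Per3, Nr1d1, Nr1d2 and Dbp, while all 3 CAC points of Cry1 and of Per2 are above all 3 CONT points.

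In the quasi-likelihood test of edgeR between CAC and CONT, 0 of the 10 clock genes had an adjusted p under 0.05, and 0 of all 17296 genes tested had one (0.0%). At an unadjusted p under 0.05, 1 of the 10 genes was called, Cry1, against 13.3% of all genes (6.31% higher and 6.95% lower in CAC). The groups did not overlap for 2 of the 10 genes, Cry1 and Per2, both higher in CAC, against 22.5% of all genes in either direction and 11.8% in that direction. Both shares are near those of all genes. The log2 fold change was above 0 for 7 of the 10 genes and below 0 for 3, with a median of 0.25, against -0.06 for all genes tested. DESeq2, the tool of the study, called 1 of the 10 genes at an adjusted p under 0.05, Cry1, against 5.62% of the 17160 genes to which it gave an adjusted p. For a single gene, the exact two-sided permutation test of 3 mice against 3 has 0.1 as its smallest p.

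**Figure D2:**
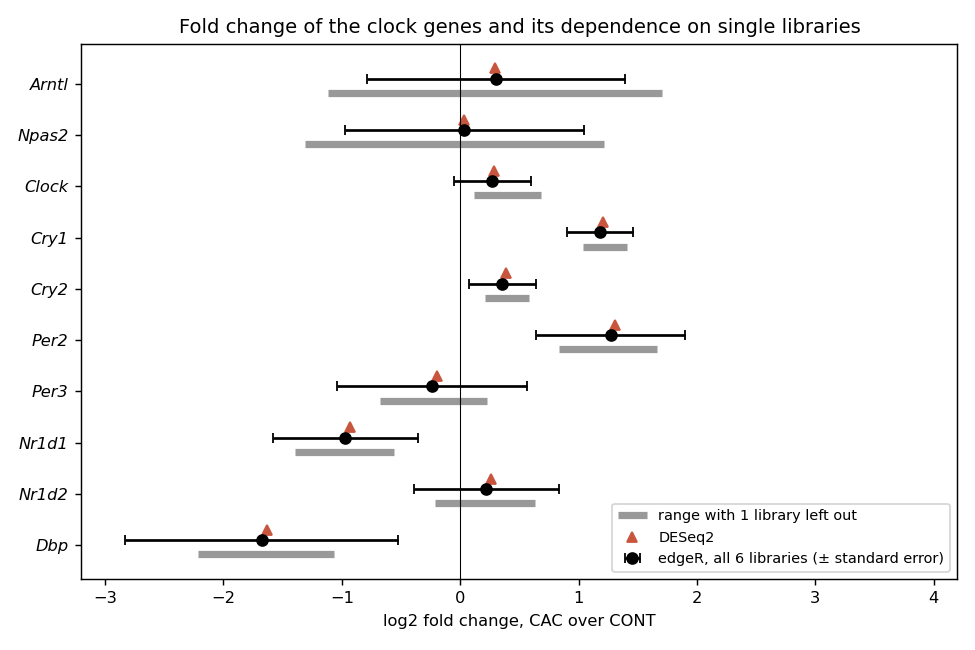
Log2 fold change of each clock gene, CAC over CONT. Black points with bars are edgeR estimates with their standard errors on all 6 libraries, red triangles are DESeq2 estimates, and grey bars span the edgeR estimates with each library left out in turn. The grey bars of Arntl, Npas2, Per3 and Nr1d2 cross 0, and those of Cry1 and Per2 lie above 0.

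Arntl encodes BMAL1, the partner without which the activating pair does not form. It was at 25.7, 4.205 and 4.48 CPM in CONT replicates 1, 2 and 3 and at 2.18, 8.23 and 31.8 CPM in CAC replicates 1, 2 and 3. The spread within a group was thus 6.11-fold in CONT and 14.6-fold in CAC, and the 2 high libraries were 1 of each group. CAC over CONT gave a log2 fold change of 0.30 (SE 1.09, edgeR adjusted p = 0.931), and it was -1.12 without CAC replicate 3 and 1.70 without CONT replicate 1.

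Npas2, the paralogue of Clock that can take its place in the pair, was the lowest of the 10 genes per length, with a mean of 0.768 FPKM in CONT and 0.787 FPKM in CAC. Its values were 9.63, 2.58 and 1.45 CPM in CONT and 1.11, 2.502 and 10.3 CPM in CAC. CONT replicate 1 and CAC replicate 3 were again the 2 high libraries, and the other 4 did not pass 2.58 CPM. Its log2 fold change was 0.03 (SE 1.01, edgeR adjusted p = 0.993), and it was -1.31 without CAC replicate 3 and 1.21 without CONT replicate 1.

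Clock moved less between mice. It was at 99.0, 51.6 and 49.9 CPM in CONT and at 63.2, 80.4 and 98.4 CPM in CAC, a spread of 1.98-fold and 1.56-fold within the groups. The highest library was again CONT replicate 1, followed by CAC replicate 3. Its log2 fold change was 0.27 (SE 0.33, edgeR adjusted p = 0.747). Without CONT replicate 1 it was 0.68, with an adjusted p of 0.263 by edgeR and 0.0490 by DESeq2, which called 11.02% of all genes without that library. It was 0.12, 0.11 and 0.11 without CONT replicate 2, CONT replicate 3 and CAC replicate 3, and 0.45 without CAC replicate 1.

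Cry1 encodes a repressor that binds the activating pair directly. It was at 18.6, 13.3 and 15.8 CPM in CONT (mean 15.9 ± 2.68 SD, n = 3) and at 40.4, 24.6 and 43.2 CPM in CAC (mean 36.0 ± 10.02 SD, n = 3). The lowest CAC value was above the highest CONT value, and CONT replicate 1 and CAC replicate 3 did not stand far from their groups. The log2 fold change was 1.18 (SE 0.28), with an unadjusted p of 0.00424 and an adjusted p of 0.236 by edgeR, and it stayed between 1.04 and 1.40 with any 1 library left out. DESeq2 gave 1.20 (SE 0.34, adjusted p = 0.0117). The DESeq2 call was kept without CONT replicate 1 (adjusted p = 0.00235) and without CAC replicate 2 (0.000249). It was lost when any of the other 4 libraries was left out, with adjusted p from 0.0578 to 0.102. By edgeR the adjusted p was 0.233 to 0.684 with 1 library left out. The exact permutation p was 0.1, the smallest that 3 against 3 can give.

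Cry2, the paralogue of Cry1, was at 50.7, 75.7 and 72.1 CPM in CONT and at 103, 93.8 and 57.2 CPM in CAC. The groups overlapped because CAC replicate 3 fell among the CONT values. Cry2 had a log2 fold change of 0.36 (SE 0.28, edgeR adjusted p = 0.602), between 0.21 and 0.58 with 1 library left out. Cry1 and Cry2 thus had fold changes of the same sign but of different size, and the ratio of their counts overlapped between the groups, at 0.367, 0.175 and 0.220 in CONT and 0.391, 0.262 and 0.754 in CAC.

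Per2, a repressor that also responds to glucocorticoids, was at 10.5, 52.2 and 59.7 CPM in CONT (mean 40.8 ± 26.5 SD, n = 3) and at 145, 79.7 and 70.7 CPM in CAC (mean 98.6 ± 40.8 SD, n = 3). The groups did not overlap, and the gap between the groups, from 59.7 to 70.7 CPM, was smaller than the spread within either. Per2 had a log2 fold change of 1.27 (SE 0.63, unadjusted p = 0.0869 and adjusted p = 0.429 by edgeR), and the adjusted p by DESeq2 was 0.242. Without CONT replicate 1, the lowest library, it was 0.83, and without CONT replicate 3 it was 1.66. The exact permutation p was 0.1.

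Per3, the third Period gene, whose mRNA cycles widely in peripheral tissues, was at 26.1, 142 and 149 CPM in CONT and at 140, 106 and 23.7 CPM in CAC. The low values were again those of CONT replicate 1 and CAC replicate 3, a spread of 5.69-fold within CONT and 5.91-fold within CAC. Per3 had a log2 fold change of -0.24 (SE 0.80, edgeR adjusted p = 0.926), and it was 0.23 without CAC replicate 3 and -0.68 without CONT replicate 1.

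Nr1d1 encodes REV-ERBα, the receptor that represses Arntl. It was at 36.9, 144 and 177 CPM in CONT and at 54.0, 93.1 and 35.9 CPM in CAC. CAC replicates 1 and 2 lay within the range of CONT, and CAC replicate 3 was just below CONT replicate 1. Its log2 fold change was -0.97 (SE 0.61, edgeR adjusted p = 0.517), with -1.40 when CAC replicate 2 was left out and -0.56 when CONT replicate 3 was left out. Without CONT replicate 1 it was -1.38, with an adjusted p of 0.264 by edgeR and 0.0396 by DESeq2, where the same 11.02% of all genes were called.

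Nr1d2, which encodes REV-ERBβ, was at 24.9, 120 and 140 CPM in CONT and at 131, 131 and 70.0 CPM in CAC. CONT replicate 1 was the lowest library and CAC replicate 3 the next. Nr1d2 had a log2 fold change of 0.22 (SE 0.61, edgeR adjusted p = 0.905), and it was -0.22 without CONT replicate 1 and 0.63 without CONT replicate 3. The 2 REV-ERB genes thus had fold changes of opposite sign with all 6 libraries, and neither passed the test. The counts of Nr1d1 are uncertain where its exons overlap those of Thra.

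Dbp encodes a D-box activator and is a direct output of the CLOCK and BMAL1 pair. It was at 6.33, 132 and 175 CPM in CONT and at 52.4, 39.2 and 6.53 CPM in CAC. The spread was 27.7-fold within CONT, wider than for any other of the 10 genes, and 8.03-fold within CAC. The 2 CAC libraries with the higher values lay below CONT replicates 2 and 3 and above CONT replicate 1. The log2 fold change was -1.68 (SE 1.16, unadjusted p = 0.192 and adjusted p = 0.550 by edgeR). It was -2.22 without CONT replicate 1, with an unadjusted p of 0.0492 and an adjusted p of 0.319 by edgeR and an adjusted p of 0.0577 by DESeq2. It was -1.06 without CONT replicate 3 (unadjusted p = 0.457 and adjusted p = 0.847 by edgeR) and -1.18 without CAC replicate 3. The exons of Dbp overlap those of Sphk2, which leaves its counts uncertain by the shared reads.

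Per length, as the FPKM values that the authors deposited allow, the 10 genes stood in a different order in the groups. In CONT the mean level was highest for Nr1d1 (31.1 ± 19.0 FPKM, SD, n = 3) and Dbp (27.96 ± 23.5 FPKM), followed by Nr1d2 (14.1 ± 9.10 FPKM), Per3 (8.82 ± 5.74 FPKM), Cry2 (8.41 ± 1.65 FPKM) and Per2 (5.59 ± 3.61 FPKM). In CAC it was highest for Nr1d2 (16.8 ± 5.37 FPKM) and Nr1d1 (16.2 ± 7.67 FPKM), followed by Per2 (13.8 ± 5.82 FPKM), Cry2 (10.96 ± 3.18 FPKM), Dbp (8.94 ± 6.49 FPKM), Cry1 (8.82 ± 2.48 FPKM) and Per3 (7.65 ± 5.13 FPKM). The lowest levels were those of Clock (3.92 FPKM in CONT and 4.79 in CAC), Cry1 in CONT (3.83 ± 0.679 FPKM), Arntl (1.23 and 1.52 FPKM) and Npas2. Neighbours in either order differed by less than the larger of their SDs, except Cry1 and Arntl in CONT and Clock and Arntl in CAC.

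For most of the 10 genes, CONT replicate 1 and CAC replicate 3 stood together at one end of the 6 libraries, while the order of the other 4 differed from gene to gene. CONT replicate 1 and CAC replicate 3 were the 2 highest libraries for Arntl, Npas2 and Clock, the activating side of the loop. The same pair were the 2 lowest libraries for Cry2, Per3, Nr1d1, Nr1d2 and Dbp. This made 8 of 10 genes, against 19.6% of all 17296 genes (8.27% as the 2 highest and 11.3% as the 2 lowest). The others were Cry1 and Per2. Their groups did not overlap, and such a gene cannot have 1 library of each group as its 2 highest or 2 lowest. The shares of all genes are also over such genes, which were 22.5%. Within their groups, CONT replicate 1 and CAC replicate 3 were the highest for Cry1 and the lowest for Per2. The pattern of this pair was noticed after the values were seen. The genes of one loop are not independent of each other, so the counts are given without a test.

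The size of the deviation was read on log2(CPM + 0.5), for each of these libraries against the mean of the other libraries of its group. In CONT replicate 1, Arntl was 2.44, Npas2 2.05, Clock 0.96 and Cry1 0.35 above CONT replicates 2 and 3, while the difference was -4.48 for Dbp, -2.46 for Per3, -2.36 for Nr1d2, -2.35 for Per2, -2.10 for Nr1d1 and -0.54 for Cry2. In CAC replicate 3, Arntl was 2.74, Npas2 2.29, Clock 0.46 and Cry1 0.45 above CAC replicates 1 and 2, while the difference was -2.70 for Dbp, -2.34 for Per3, -0.97 for Nr1d1, -0.90 for Nr1d2, -0.78 for Cry2 and -0.60 for Per2. Over all genes tested, this difference had a median of -0.14 and an SD of 1.10 in CONT replicate 1, and a median of -0.02 and an SD of 0.93 in CAC replicate 3. A value at or below that of Dbp was reached by 58 genes in CONT replicate 1 and by 16 in CAC replicate 3, with Dbp itself counted. A value at or above that of Arntl was reached by 101 genes in CONT replicate 1 and by 397 in CAC replicate 3. Clock and Cry2 deviated little, since 10.3% and 17.3% of all genes were at or above Clock in these libraries and 33.2% and 8.59% were at or below Cry2.

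**Figure D3:**
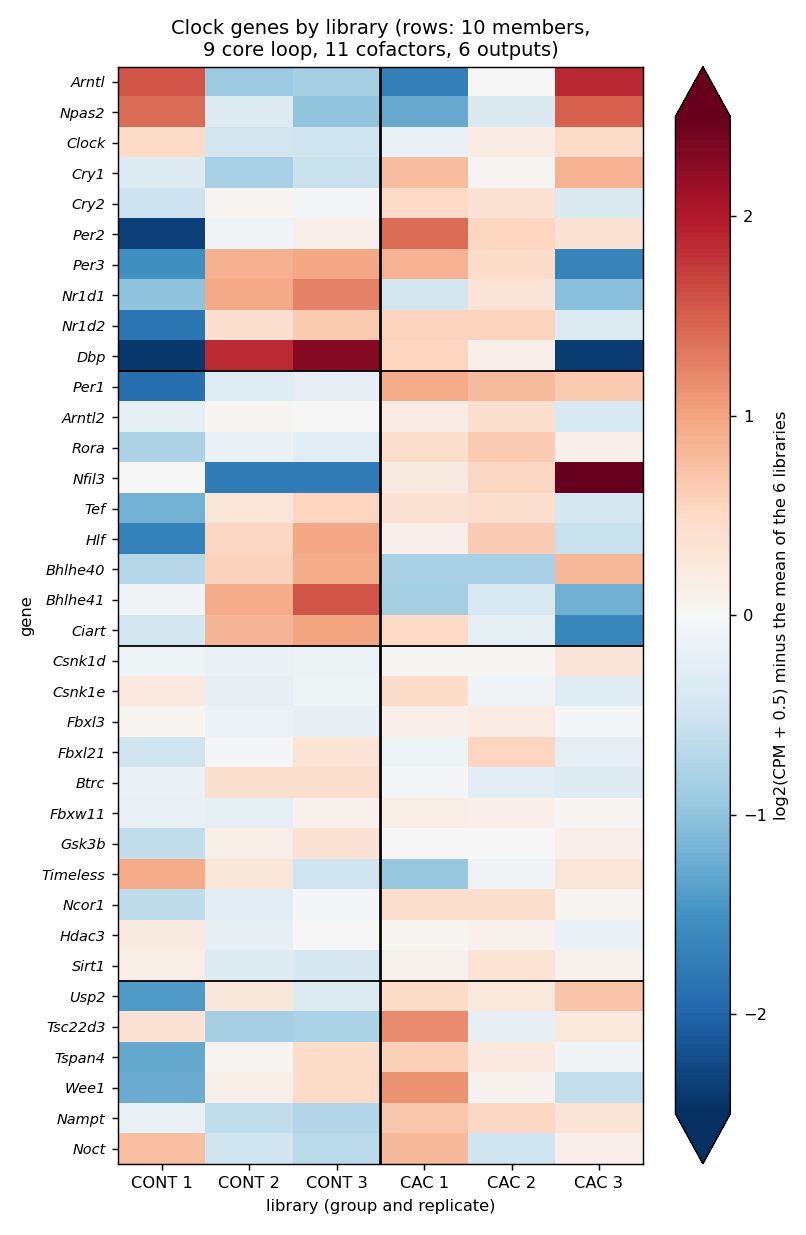
Log2(CPM + 0.5) minus the mean of the 6 libraries for the 10 clock genes and for 26 other clock genes in each library, red above and blue below that mean, with colors capped at 2.5 in either direction. The columns of CONT replicate 1 and CAC replicate 3 are red for Arntl and Npas2 and blue for Per3, Nr1d1 and Dbp, and the columns of CONT replicates 2 and 3 show the reverse.

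CONT replicate 1 and CAC replicate 3 also differed from other libraries in features outside the clock. CONT replicate 1 had the high mitochondrial share of 30.2%, and CAC replicate 3 had 4.69%, within the range of the other libraries. The testis markers Prm1, Prm2 and Tnp1 summed to 905 CPM in CAC replicate 3 and to 614 CPM in CONT replicate 2, against 9.36 CPM or less in the other 4 libraries. The 5 macrophage markers summed to 209 CPM in CONT replicate 1 and 267 CPM in CAC replicate 3, the 2 lowest sums, against 318 to 724 CPM in the other libraries. All 5 were detected in every library, and Csf1r and Cd163 were the 2 of the 5 with this pair lowest. In other lists, the pair was also lowest for Pdgfra (stroma, 20.7 and 57.6 CPM). It was highest for Cdh5 (endothelium, 541 and 417 CPM) and Cd3d (T cell, 2.05 and 1.13 CPM). Of all genes tested, 19.6% had this pair at one end. The part of these features in the levels of the clock genes was not tested.

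Ratios between members within a library do not depend on how the library is scaled. The log2 ratio of Arntl to Dbp counts was 2.01, -4.97 and -5.28 in CONT replicates 1, 2 and 3 and -4.58, -2.25 and 2.28 in CAC replicates 1, 2 and 3. In CONT replicate 1 and CAC replicate 3, Arntl reads thus outnumbered Dbp reads, and in the other 4 libraries the order was the opposite. Arntl to Per3 ran from -5.07 to -0.02 in CONT and from -6.00 to 0.42 in CAC, and Arntl to Nr1d1 from -5.30 to -0.52 and from -4.62 to -0.18. The ratios of Arntl to Nr1d2, Per2 and Cry2 and of Npas2 to Clock were likewise highest in these 2 libraries. For the ratios of Arntl other than that to Per2, this restates the order of the single genes given above. None of these 7 ratios separated the groups. The differences of the group means, CAC minus CONT, ran from -1.47 for Arntl to Per2 to 1.23 for Arntl to Dbp, while the SD within a group was 2.87 and 2.45 for the first and 4.12 and 3.49 for the second.

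CAC replicates 1 and 2 were closer to CONT replicates 2 and 3 in these ratios, and they differed from each other. The log2 ratio of Arntl to Dbp was -4.58 in CAC replicate 1 and -2.25 in CAC replicate 2. CAC replicate 1 also had the lowest Arntl (2.18 CPM) and Npas2 (1.11 CPM) and the highest Per2 (145 CPM) and Cry2 (103 CPM) of all 6 libraries. CAC replicate 2 stood between CAC replicates 1 and 3 for Arntl, Npas2, Clock, Cry2, Per2, Per3 and Dbp. CONT replicates 2 and 3 differed by less, with Arntl at 4.205 and 4.48 CPM and Per3 at 142 and 149 CPM. With 3 mice and no hours of collection, these values do not place a mouse at a clock time.

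Ratios between paralogues were added after the values had been seen. The ratio of Per2 to Per3 counts was 0.403, 0.366 and 0.402 in CONT and 1.04, 0.753 and 2.98 in CAC. It was nearly the same in the 3 CONT libraries, although Per2 spread 5.68-fold and Per3 5.69-fold over these libraries, and it was higher in every CAC library. The difference of the mean log2 ratios was 1.76, with an SD of 0.08 in CONT and 1.04 in CAC, and it was 1.18 without CAC replicate 3 and 2.17 without CAC replicate 2. Among all other genes tested, the ratio to Per3 kept the groups apart for 3.16%.

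The ratio of Nr1d1 to Nr1d2 counts was 1.48, 1.20 and 1.26 in CONT and 0.412, 0.709 and 0.512 in CAC. Nr1d1 thus had more reads than Nr1d2 in every CONT library and fewer in every CAC library. The difference of the mean log2 ratios was -1.30, with an SD of 0.16 in CONT and 0.39 in CAC, and it ran from -1.51 to -1.12 with 1 library left out. Among all other genes tested, the ratio to Nr1d2 kept the groups apart for 9.49%, and the ratio to Cry2, which did not separate the groups for Cry1, did so for 18.4%. These ratios were picked among members with known values and are given without a test.

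**Figure D4:**
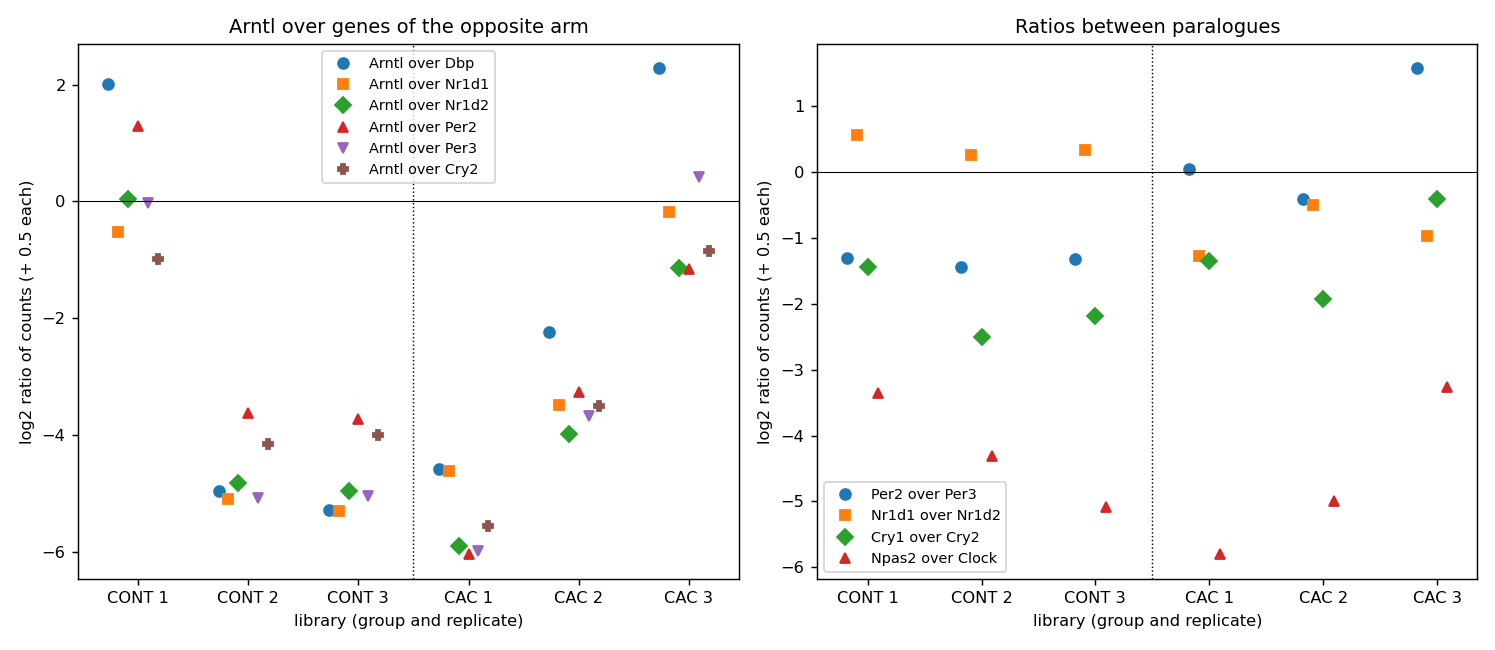
Log2 ratios of counts within each library, with 0.5 added to each count. Left, Arntl over 6 genes of the opposite arm, highest in CONT replicate 1 and CAC replicate 3. Right, ratios between paralogues, where Per2 over Per3 is higher and Nr1d1 over Nr1d2 lower in the 3 CAC libraries than in the 3 CONT libraries.

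The other genes of the pathway came from a list of 27 clock genes, of which 26 passed the filter on low counts and Rorb, at 0.121 CPM or less in every library, did not. Of these, 0 passed an adjusted p under 0.05 by edgeR, and 6 had an unadjusted p under 0.05, against 13.3% of all genes. The 6 were Per1, Rora, Nfil3, Ncor1 and Nampt, higher in CAC, and Bhlhe41, lower in CAC. The groups did not overlap for 7 of the 26 genes, these 6 and Csnk1d, against 22.5% of all genes. By DESeq2, 5 of the 26 had an adjusted p under 0.05, against 5.62% of all genes: Per1 (0.0305), Rora (0.0391), Nfil3 (0.0333), Bhlhe41 (0.0137) and Nampt (0.00527).

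Of the 9 tested genes of the core loop in this list, 4 were among them. Per1, a Period gene that glucocorticoids induce, was at 35.6, 107 and 115.4 CPM in CONT and at 254, 231 and 210 CPM in CAC, with a log2 fold change of 1.43 (SE 0.44, unadjusted p = 0.0154 and adjusted p = 0.287 by edgeR). Its groups thus did not overlap, as for Per2. Rora encodes RORα, a receptor that competes with the REV-ERB receptors for the element shown in Arntl. It was at 37.5, 57.5 and 53.2 CPM in CONT and 86.9, 101 and 70.7 CPM in CAC (log2 fold change 0.80, unadjusted p = 0.0123 and adjusted p = 0.280 by edgeR).

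Nfil3, which encodes the repressor at D-boxes such as those shown in Per3, was at 18.01, 4.99 and 5.02 CPM in CONT and at 21.1, 25.87 and 123 CPM in CAC. CONT replicate 1 and CAC replicate 3, the libraries with the lowest Per3 and Dbp, had the highest Nfil3 of their groups. Across the groups this order was not kept. CAC replicates 1 and 2 had more Nfil3 than CONT replicate 1. They also had more Per3 (140 and 106 against 26.1 CPM) and more Dbp (52.4 and 39.2 against 6.33 CPM). A relation of Nfil3 to these genes was not tested. The log2 fold change of Nfil3 was 2.61 (SE 0.88, unadjusted p = 0.0225 and adjusted p = 0.306 by edgeR), and it was 1.35 without CAC replicate 3 and 3.50 without CONT replicate 1. Bhlhe41, which encodes a repressor that competes at E-boxes, was at 15.5, 31.4 and 49.5 CPM in CONT and 8.91, 12.4 and 6.83 CPM in CAC (log2 fold change -1.78, unadjusted p = 0.00696 and adjusted p = 0.260 by edgeR).

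Of the 11 kinases, ubiquitin ligases and cofactors, Ncor1 had an unadjusted p under 0.05. NCoR1, the corepressor recruited by the REV-ERB receptors, had a log2 fold change of 0.62 (unadjusted p = 0.0407 by edgeR). The next smallest p-values were those of Btrc, a ligase subunit that targets PER proteins (-0.44, unadjusted p = 0.0857 by edgeR), and of Sirt1, a deacetylase (0.36, unadjusted p = 0.146 by edgeR). Of the 6 outputs, Nampt, the rate-limiting enzyme of NAD salvage, was at 181, 132 and 123 CPM in CONT and 324, 290 and 253 CPM in CAC (log2 fold change 0.99, unadjusted p = 0.00477 and adjusted p = 0.239 by edgeR). Usp2, a deubiquitinase (0.83, unadjusted p = 0.0875 by edgeR), and Tsc22d3, the glucocorticoid-induced GILZ gene (0.84, unadjusted p = 0.131 by edgeR), followed. With 1 library left out, the log2 fold change ran from 0.51 to 1.28 for Usp2 and from 0.38 to 1.36 for Tsc22d3. CONT replicate 1 and CAC replicate 3 were the 2 lowest libraries for 7 of the 26 genes, Arntl2, Tef, Hlf, Ciart, Fbxl21, Tspan4 and Wee1, against 11.3% of all genes, and the 2 highest for 1, Timeless, against 8.27%. Tef and Hlf encode the D-box activators next to DBP, and Hlf was at 6.24, 30.6 and 42.1 CPM in CONT and at 23.4, 33.5 and 14.3 CPM in CAC.

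Markers of other cells moved with the groups and so with Cry1, Per2, Per1 and the other genes whose groups did not overlap. The neutrophil markers S100a8, S100a9 and Ly6g summed to 2.14 to 40.3 CPM in CONT and to 112 to 957 CPM in CAC, with the highest sum in CAC replicate 3, where Nfil3 was also highest. All 3 were higher in every CAC library, and Ly6g, the defining one, was at 0 in CONT replicate 1 and at 3.25 CPM or less elsewhere. The 5 markers of B and plasma cells summed to 32.5 to 85.7 CPM in CONT and to 7.25 to 18.3 CPM in CAC, with 4 of the 5 lower in every CAC library and none at 0. The 4 epididymis markers summed to 132, 2.63 and 8784 CPM in CONT and to 0.566 CPM or less in CAC, each of them at 0 in some library. Sums of the macrophage, T cell, endothelium, mesothelium, stroma, testis and skeletal muscle markers overlapped between the groups. Single markers of these lists did not overlap: Col1a1 (stroma) was at 194 to 324 CPM in CONT and 14.3 to 117 CPM in CAC, Dcn (stroma) at 780 to 973 and 1099 to 1498 CPM, Cd3e (T cell) at 0.803 to 1.05 and 1.09 to 1.90 CPM, and Myh4 (skeletal muscle) at 0.0452 to 0.892 and 2.30 to 2.98 CPM. The part of these cells in the levels of the clock genes was not tested.

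The genes whose pattern was most like that of Arntl or Dbp were found among 12254 genes by the mean absolute difference of log2 CPM over the 6 libraries, each gene centred on its own mean. For Arntl they were Trp53i11 (0.390), Gm13889 (0.458), Rarres1 (0.475), Cisd3 (0.509) and Gm10443 (0.515). Trp53i11 was at 177, 62.0 and 64.9 CPM in CONT and at 24.1, 85.3 and 176 CPM in CAC, so that its highest and lowest libraries were close to those of Arntl. For Dbp they were Gm45470 (0.537), Cilp (0.552), Siglec1 (0.609), Acpp (0.645) and Scube3 (0.662). Cilp, a matrix protein gene, was at 7.22, 41.7 and 37.2 CPM in CONT and at 15.1, 10.6 and 2.11 CPM in CAC. None of these 10 genes was on the clock lists. Over 6 libraries such a likeness is a weak description, since 19.6% of all genes tested also had CONT replicate 1 and CAC replicate 3 together at one end.

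Some of the 10 genes overlap others on the chromosome, which bears on their counts because the sources used here do not say whether counting used the strand. Positions are those of GRCm38 in the deposited table. Nr1d1 (chromosome 11, from 98767932 to 98775333, minus strand) shares 263 of its 3077 exon bases with Thra, the thyroid hormone receptor gene on the other strand, which had 15403 reads over all libraries against 12198 for Nr1d1. Dbp (chromosome 7, from 45705088 to 45710203, plus strand) shares 539 of its 2993 exon bases with Sphk2 on the other strand, which had 5092 reads against 9378 for Dbp. Cry2 (chromosome 2, from 92403646 to 92434043, minus strand) shares 295 of its 6320 exon bases with D930015M05Rik, which had 168 reads. Per3 (chromosome 4, from 151003652 to 151044665) lies within Camta1 on the same strand and shares 0 exon bases with it. Arntl (chromosome 7, from 113207465 to 113314126) shares 33 exon bases with Gm45355, which had 1 read. The remaining members are Npas2 (chromosome 1, from 39193731 to 39363236), Clock (chromosome 5, from 76209868 to 76304792), Cry1 (chromosome 10, from 85131700 to 85185064), Per2 (chromosome 1, from 91415982 to 91459324) and Nr1d2 (chromosome 14, from 18204054 to 18239127), which share no exon bases with another annotated gene. The counts of Nr1d1 and Dbp are therefore uncertain by reads that could fall in the shared part.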

How the data were processed

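Reads of 6 mRNA libraries, 1 per mouse (3 CONT and 3 CAC), were aligned by the authors to the Ensembl 94 mouse genome with HISAT2 2.0.5, per their methods, and counted with featureCounts 1.5.0-p3, per the submitters' processing notes. The strand setting is not given in the sources used here. The authors deposited whole-number counts per gene without normalization. They also deposited FPKM values, in which gene length and a total per library divide the same counts. Groups came from the sample labels, and 0 columns belonged to other samples.

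Counts were analysed here in R 4.3.3 with edgeR 4.0.16 (quasi-likelihood test with robust estimation, TMM, filterByExpr by group, Benjamini-Hochberg over 17296 genes, condition as the only term), and DESeq2 1.42.0 was the alternative. FPKM values were tested with limma 3.58.1 after a log2 transform with 1 or 0.1 added, over genes of at least 0.5 FPKM in 3 libraries. Fold changes on that scale understate those of low genes. Exact permutation tests were two-sided (scipy 1.17.1). Scripts were tested on simulated data. No library duplicated another of its group (chi-square over degrees of freedom from 66.7 to 398). The common dispersion between mice was 0.265.

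The members and the lists were chosen with earlier results of these data known. Named are all 10 members, other listed clock genes with an unadjusted p under 0.05 or the 3 smallest p of a sub-list, the 5 genes most like Arntl and Dbp with a mean log2 CPM of at least 2, and overlapping genes. The list of other clock genes held 1 more gene that is not reported here, and its counts are over the remaining 27. Csnk1d and Timeless, the genes with a shared pair of extreme libraries, and the paralogue ratios were named after their values were seen. Alternatives were RLE and upper-quartile normalization, no filter, at least 10 counts in every library, a replicate block, each library left out, DESeq2, no robust estimation, voom with sample quality weights and FPKM. Added after the data were seen were DESeq2 with each library left out, the mitochondrial genes left out and the paralogue ratios.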

Additional observations from a re-analysis of the deposited data

How the results depend on the processing

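Clock, Cry1, Cry2, Per2, Nr1d1 and Dbp kept the direction of their fold change under all 24 alternatives. Under DESeq2, 1 member (Cry1) had an adjusted p under 0.05 and 2 (Cry1 and Per2) an unadjusted p under 0.05, against 0 and 1 by edgeR. These DESeq2 counts stand beside 5.62% and 9.73% of all genes. With 1 library left out, DESeq2 called 0 to 3 members, with 3 (Cry1, Clock and Nr1d1) without CONT replicate 1, where 11.02% of all genes were called, and 1 (Cry1) without CAC replicate 2, where 3.92% were. The edgeR count at an unadjusted p under 0.05 ran from 1 to 4 with 1 library left out, and the 4 without CONT replicate 1 were Cry1, Clock, Nr1d1 and Dbp. The share of all genes was 15.6% without that library and 7.24% to 11.7% without any 1 of the other 5. Voom with sample quality weights gave 4 members and 11 other clock genes at an unadjusted p under 0.05, against 1 and 6, while its share of all genes was 28.2%, against 13.3%. The 2 genes whose groups did not overlap were the same under RLE and upper-quartile normalization and FPKM.

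Directions that reversed were those of small fold changes. With 1 library left out, the log2 fold change ran from -1.12 to 1.70 for Arntl, from -1.31 to 1.21 for Npas2, from -0.68 to 0.23 for Per3 and from -0.22 to 0.63 for Nr1d2 by edgeR. By DESeq2 without CONT replicate 2, CONT replicate 3 and CAC replicate 3, the reversed values were -0.098, -0.080 and -1.12 for Arntl, -0.25, -0.38 and -1.31 for Npas2, and 0.063, 0.16 and 0.26 for Per3. For Nr1d2 it was -0.18 without CONT replicate 1. The log2 fold change of Npas2 was -0.028 under upper-quartile normalization, -0.085 with the replicate block and -0.0021 by limma on unfiltered log2(FPKM + 1), and that of Nr1d2 was -0.061 under voom. In all, 209 of 238 alternative values of single members kept their direction and side of the threshold. The cause of these changes was not tested.

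The labels do not say that the replicate numbers pair the samples. The deviations of same-numbered libraries from their group means correlated at 0.31, -0.15 and -0.22, and those of other pairs at -0.44 to 0.47. With 3 libraries per group, these values cannot decide whether the samples are paired. With the block, edgeR gave 0 members and 1 gene of all at an adjusted p under 0.05, and 1992 genes in place of 2294 at an unadjusted p under 0.05. The depth was 11.2 to 26.5 reads per CPM. Counting error limits Npas2 and Arntl most, at 27 and 53 counts in the library with the fewest. For both genes that was CAC replicate 1, which was not the shallowest library, at 24.4 reads per CPM. The genes were at 1.11 and 2.18 CPM there. With 3 mice per group of one strain and sex and no hours of collection, an effect of the tumor on the clock and a difference in collection time cannot be told apart.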
